A study of Mus musculus with 2 samples.

Results

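S100 proteins are small calcium-binding proteins of the EF-hand type, and 8 of their genes (S100a1, S100a4, S100a6, S100a8, S100a9, S100a10, S100a11 and S100a13) were described here in LKS+ cells exposed to EVs (extracellular vesicles). Every probe on the arrays whose RefSeq accession belongs to one of these genes was taken, which gave 9 probes for 8 of the 22911 genes that could be named. S100a10 had 2 probes and the other 7 genes had 1 probe each. All 8 genes were well above background on both arrays, as were 13409 genes in all, so no member was lost to the filter on dim probes.

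The series holds 2 arrays, each of total RNA from LKS+ cells, the lineage-negative, c-kit-positive, Sca-1-positive fraction of mouse bone marrow (BM) that contains hematopoietic stem/progenitor cells (HSPCs). The cells came from WT mice and were first propagated in serum-free medium with SCF, IL-6 and IL-3, cytokines that both conditions received. They were then exposed for 24 h to 150 μg/ml of SP (spleen)-derived EVs, called exosomes in the labels, from normal mice (control EVs, 1 array) or from mice with chronic myelogenous leukemia (CML EVs, 1 array). The labels give only the spleen of a CML mouse as the source, whereas the methods state that the CML donors of this experiment had been irradiated before harvest and mention no irradiation of the normal donors, so leukemia and irradiation cannot be told apart in this comparison. CML mice were recipients of LKS+ cells carrying BCR-ABL and GFP on a retrovirus (MSCV), a model in which the oncogene is driven by the viral promoter in the transduced cells and their progeny. The strain and the number of mice behind each EV preparation and each culture are not given in the sources used here for this experiment.

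Because each condition has 1 array, there is no replicate check and no test of any difference. All values below describe this pair of arrays. Signals are fluorescence intensities after each array was scaled to the same trimmed mean (2500), and a log2 ratio is CML EVs over control EVs. The error given after a signal is the estimate that the scanner software's error model attaches to each spot, which for these bright spots is 10.0% of the signal. It gives an error of 0.20 on each member's log2 ratio. Since this error is the same for all members, setting a ratio against it sorts the ratios by size only and is no test. The error covers the spot and not the variation between cultures or EV preparations.

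Most S100 proteins work as dimers that change shape on binding calcium and then dock onto partner proteins. S100a8 and S100a9 pair with each other to form calprotectin, which is stored in the cytosol of neutrophils and monocytes and acts outside the cell as an alarmin that is sensed by Tlr4 and by Ager, the receptor RAGE. S100a4 binds nonmuscle myosin and is linked to cell motility. S100a10 is an exception in the family since it does not respond to calcium and sits in a complex with annexin A2. In the BM, S100a8 and S100a9 are known as genes of the granulocyte and monocyte lines, and they are switched on strongly as progenitors mature.

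RefSeq places all 8 genes on chromosome 3. In the order of their starts, counting the other S100 genes on the arrays, S100a1 and S100a13 lie first, S100a4 and S100a6 are separated by S100a5, S100a8 and S100a9 are direct neighbours, and S100a11 and S100a10 close the row. The stretches around the starts of S100a8 and S100a9, the members with the highest ratios, are printed here with that of S100a4, the member with the lowest ratio. They show how alike or unlike the starts of these genes are. Each sequence is from RefSeq (GRCm38.p6), runs 5′ to 3′ on the strand of the gene, and covers 250 bases before to 20 bases after the start. S100a8 is at chr3:90668821-90669090 on the + strand, S100a9 at chr3:90695702-90695971 on the - strand and S100a4 at chr3:90603520-90603789 on the + strand. Capitals mark matches to TATAAA, the TATA box core, or to TTNCNNAA, a short core taken from sites of the C/EBP factors (any base at N), each searched on both strands (TTTATA and TTNNGNAA on the other).
S100a8: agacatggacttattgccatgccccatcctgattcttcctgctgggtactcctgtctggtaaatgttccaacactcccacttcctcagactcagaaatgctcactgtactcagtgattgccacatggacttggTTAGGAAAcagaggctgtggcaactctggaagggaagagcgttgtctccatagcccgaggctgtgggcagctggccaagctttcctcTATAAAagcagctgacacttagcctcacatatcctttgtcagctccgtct
S100a9: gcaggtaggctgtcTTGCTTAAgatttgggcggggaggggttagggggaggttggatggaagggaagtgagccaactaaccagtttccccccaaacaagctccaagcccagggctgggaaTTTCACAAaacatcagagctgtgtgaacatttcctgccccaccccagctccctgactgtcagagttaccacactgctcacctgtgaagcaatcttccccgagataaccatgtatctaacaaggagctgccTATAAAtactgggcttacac
S100a4: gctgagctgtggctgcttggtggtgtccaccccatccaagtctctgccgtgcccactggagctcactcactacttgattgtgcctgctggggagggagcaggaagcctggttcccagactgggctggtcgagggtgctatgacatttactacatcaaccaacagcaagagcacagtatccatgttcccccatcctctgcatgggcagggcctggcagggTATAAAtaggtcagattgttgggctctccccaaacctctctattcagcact

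TATAAA begins at position -30 in S100a8, at -31 in S100a4 and at position 1 in S100a9, where 1 is the first base of the RefSeq transcript. It was found in 3 of the 7 members whose start is in the table used (S100a10 is not in that table), and in 12.9% of 32851 mouse promoters of the same length. The C/EBP-type core was found in 2 of the 7, once in S100a8 (TTAGGAAA at -117) and at 2 places in S100a9 (TTGCTTAA at -236 and TTTCACAA at -130), and in 38.5% of all promoters. No match overlaps another in these 3 stretches. A core this short occurs often, and a match is not a measured binding site.

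S100a9 gave the brightest spot of the family. The scaled signal of the control EV array stood at 134970 ± 13497 and that of the CML EV array at 158211 ± 15821. Among the 13409 genes well above background on both arrays it ranked 46 by brightness with control EVs and 18 with CML EVs. The log2 ratio was 0.23 ± 0.20, a 1.17-fold higher signal, which is above 91.4% of all genes. The probe carries the accession of 1 of the transcript forms of S100a9.

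S100a8, its partner in calprotectin, had the highest ratio of the 8 genes. Its spot gave 56320 ± 5632 on the control EV array and 76572 ± 7657 on the CML EV array. This corresponds to a log2 ratio of 0.44 ± 0.20, or a 1.36-fold higher signal, above 97.2% of all genes. S100a8 was the member whose ratio exceeded 2 of its scanner errors (2.17), and S100a9 was the other member past 1 error (1.12). S100a8 moved from rank 163 to rank 116 by brightness. The ratios of the 2 calprotectin genes differed by 0.21 on the log2 scale, which is about the size of the error of either ratio.

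S100a4, which binds nonmuscle myosin, gave 56626 ± 5663 with control EVs and 49890 ± 4989 with CML EVs. Its log2 ratio was -0.18 ± 0.20 (1.14-fold lower). With control EVs its spot was as bright as that of S100a8 within the error, whereas with CML EVs the S100a8 spot was the brighter by more than both errors. The log2 ratios of S100a8 and S100a4 lay 0.63 apart. S100a6 (calcyclin), whose partners include the ubiquitin ligase adaptor Cacybp, gave 21133 ± 2113 with control EVs and 19396 ± 1940 with CML EVs. Its log2 ratio was -0.12 ± 0.20 (1.09-fold lower), so both genes were lower by less than 1 scanner error.

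S100a10, the annexin A2 partner, was measured by 2 probes. The brighter one gave 4274 ± 427 with control EVs and 4155 ± 415 with CML EVs, a log2 ratio of -0.04. The dimmer one gave 1454 ± 145 and 1325 ± 133 in the same order, a log2 ratio of -0.13. The probes differed by 0.09 and pointed the same way, within the error of each.

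S100a11, which docks onto annexin A1, gave 4040 ± 404 with control EVs and 4522 ± 452 with CML EVs, a log2 ratio of 0.16. RefSeq also lists a processed copy of this gene (S100a11-ps), and the files hold no probe sequence with which to tell their signals apart. S100a13, which takes part in the non-classical release of Fgf1, gave 2609 ± 261 with control EVs and 2914 ± 291 with CML EVs, a log2 ratio of 0.16 as well. S100a1, best known from muscle, was the dimmest member at 862 ± 86.3 with control EVs and 919 ± 92.0 with CML EVs, a log2 ratio of 0.09. In RefSeq S100a1 lies on the - strand and S100a13 on the + strand, and from their starts the genes run away from each other. The stretches around these starts overlap (chr3:90514311-90514580 for S100a1 and chr3:90514185-90514454 for S100a13). For all 3 genes the ratio was smaller than its scanner error.

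**Figure D1:**
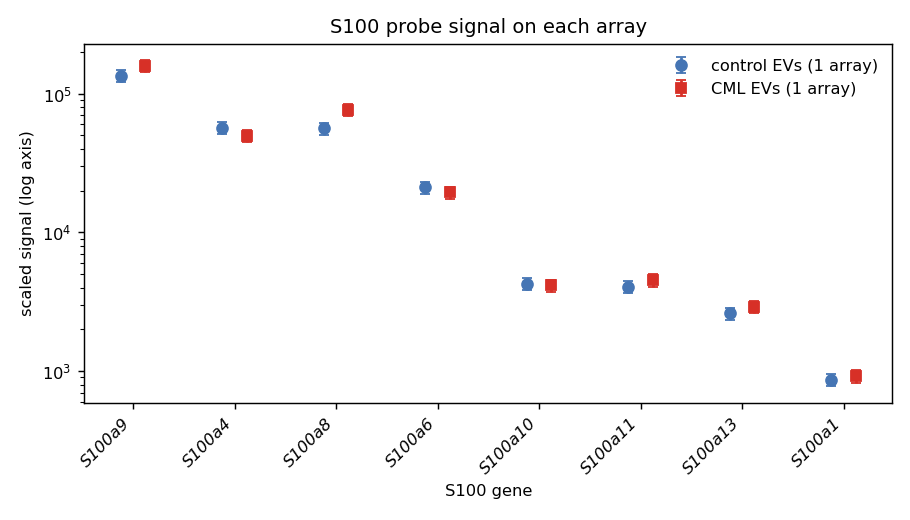
Scaled signal (log axis) of the 8 S100 genes on the control EV array (circles) and the CML EV array (squares), 1 array each; bars are the error estimate of the scanner software. The S100a8 bars, 56320 ± 5632 and 76572 ± 7657, do not overlap, and the bars of S100a4 (56626 ± 5663 and 49890 ± 4989) do.

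The order of brightness with control EVs was S100a9, S100a4, S100a8, S100a6, S100a10, S100a11, S100a13 and S100a1. Neighbours in this order that did not differ beyond their errors were S100a4 and S100a8, and S100a10 and S100a11. With CML EVs the order was S100a9, S100a8, S100a4, S100a6, S100a11, S100a10, S100a13 and S100a1. There the neighbours S100a11 and S100a10 did not differ beyond their errors. Brightness depends on the probe as well as on the transcript, so this is an order of spots and not of transcript amounts.

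Across the family, 5 genes were higher with CML EVs (S100a1, S100a8, S100a9, S100a11 and S100a13) and 3 were lower (S100a4, S100a6 and S100a10). At a fold of at least 1.2, S100a8 alone was higher (1 of 8) and 0 of 8 were lower, beside 6.95% of all 13409 genes higher and 7.52% lower at this fold. A count of 1 in 8 is near this background and is not a result about the family. With median scaling, quantile normalization or normexp background correction S100a9 also passed 1.2-fold, 2 of 8 beside 10.99%, 7.66% and 3.88% of all genes higher in that order. The normexp setting also included quantile normalization. At a fold of at least 1.5 the count was 0 of 8 in either direction, beside 1.52% of all genes higher and 1.18% lower, and at a fold of at least 2 it was 0 of 8 beside 0.395% higher and 0.224% lower. The median log2 ratio of the 8 genes was 0.13, and 0.03 without S100a8 and S100a9. It was 0.027 with normexp and 0.20 with median scaling. Over all genes the median was 0.0065 with quartiles at -0.09 and 0.09.

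An array loses proportionality as spots approach the limit of the scanner, and a true difference is then compressed, so the bright members were compared with spots of like brightness. Neither array held a saturated spot, and the S100a9 spot lay below the brightest gene on each array (227060 with control EVs and 258638 with CML EVs). The spike-in control of RNA added in known amounts includes a probe brighter than any S100 spot, at 192500 with control EVs and 193015 with CML EVs, with a log2 ratio of 0.0039. The 6 spike-in probes with a log2 signal of at least 8 had ratios from 0.0039 to 0.09. Such small ratios leave almost no difference to compress, so they cannot show whether a true difference would be compressed. The scanner software placed the upper end of its straight spike-in line at an unscaled signal of 684116 on the control EV array and 637999 on the CML EV array, above every S100 spot. Repeated spots of 1 probe gave a technical spread below the model's error where the mean log2 signal was at least 8. There the SD of the log2 ratio over the 10 spots of a probe had a median of 0.034 over 263 probes. Over the 26 repeated probes below that signal, where the dimmest S100 genes described below also lie, the median SD was 0.36.

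Ratios were narrowly spread among the brightest genes. Of the 183 genes with a control EV signal of at least 50000, 90% had log2 ratios between -0.11 and 0.10, with a median of -0.03. S100a8 had the highest ratio of these 183 genes and S100a9 was 5 from the top, with 4 of the 183 (2.19%) at least 1.2-fold higher and 0 lower. The genes ranked between them were Ctsg (0.36) and Mpo (0.27), which encode proteins of the primary granules of neutrophil precursors, and Plac8 (0.36), named here outside the rule since they share the top of this range. S100a4 lay at the other end, with 1 of the 183 genes below it. S100a6 fell in the range from 20000 to 50000, where 10 of 293 genes had a lower ratio and the median was 0.03. S100a8 and S100a4 thus marked the upper end and nearly the lower end of the ratios among the 183 genes, though the S100a4 ratio was within its scanner error. Their places depend on the cut at 50000, since ratios in the range from 20000 to 50000 ran from -0.20 to 0.64 (Ly6c2). Many of the 183 genes encode ribosomal proteins or histones, so these ranks also depend on which genes are this bright.

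**Figure D2:**
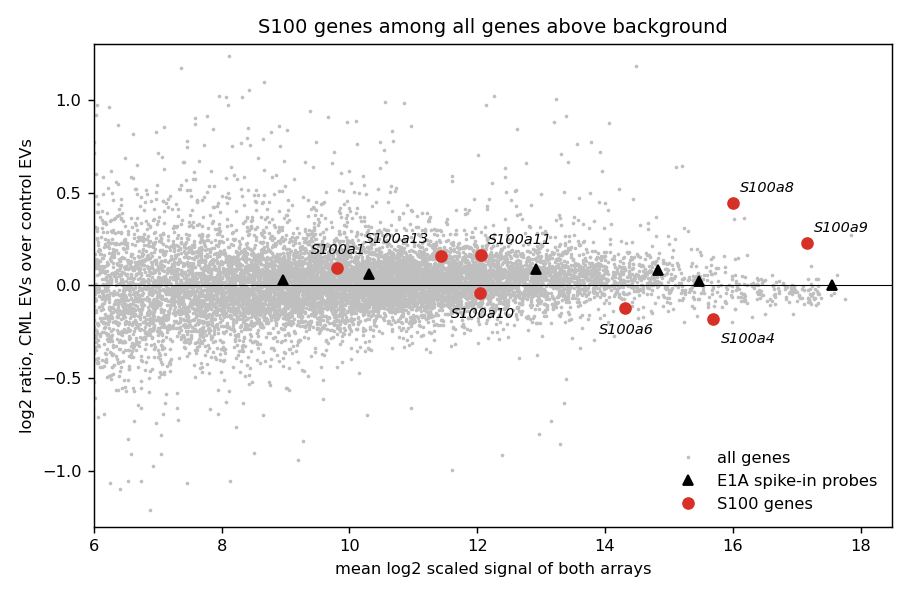
Log2 ratio (CML EVs over control EVs) against mean log2 scaled signal for genes well above background on both arrays (grey), the spike-in probes (triangles) and the 8 S100 genes (red). S100a8 (0.44) and S100a9 (0.23) sit above the grey band at the bright end, S100a4 (-0.18) and S100a6 (-0.12) sit below its middle, and the brightest spike-in is at 0.0039; genes beyond the axes are not shown.

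Most other S100 genes on the arrays were dim, with S100a16, brighter than S100a1, as the exception. Of 10 with a probe, 6 (S100a7a, S100a7l2, S100a14, S100b, S100g and S100z) were not well above background on either array. S100b is the form best known from glia and S100g the intestinal calbindin. S100a16 gave 1322 with control EVs and 1439 with CML EVs, a log2 ratio of 0.12, while its second probe was not well above background. S100a5 gave 101 and 90.8 in that order, a log2 ratio of -0.15. S100a2 was dim on both arrays, at 34.6 with control EVs and 19.97 with CML EVs, a log2 ratio of -0.79 ± 0.34 (1.73-fold lower).

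S100a3 was well above background with control EVs only. Its spot gave 79.8 ± 8.42 on the control EV array and 8.10 on the CML EV array, where the dimmest gene called well above background stood at 13.6. The signal with CML EVs was therefore at least 5.86-fold lower, taken against that dimmest level. Of 471 genes seen well above background with control EVs only, 9 had a bound at least as large, S100a3 included, and 21.4% had a bound of at least 2. In all, 799 genes were well above background on 1 array only, so dim spots crossed this limit in both directions. S100a3 and S100a2 are neighbours on chromosome 3, next to S100a4, and all 3 were lower with CML EVs, though S100a4 lies within its error. S100a3 and S100a2 were each read by a single dim probe, in the signal range where repeated spots had a median SD of 0.36. S100a16, on the other side of S100a3, was higher by less than its error.

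**Figure D3:**
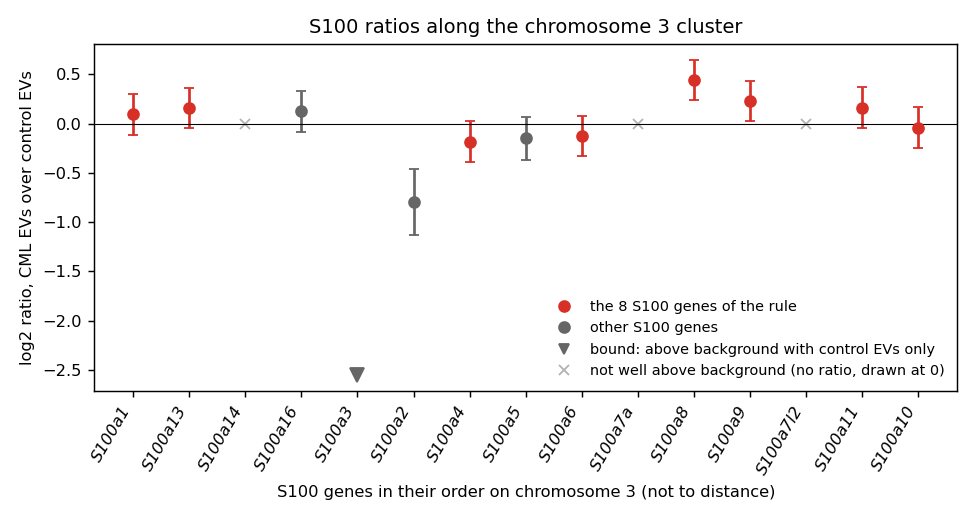
Log2 ratio (CML EVs over control EVs) of the S100 genes of chromosome 3 in their order along it, not drawn to distance; red points are the 8 genes described, grey points other S100 genes, bars the scanner error, the triangle the bound of S100a3, and crosses genes not well above background, which have no ratio. S100a8 (0.44) and S100a9 (0.23) are neighbours with the highest ratios, and S100a3 (at least 5.86-fold lower) and S100a2 (-0.79), both dim, the neighbours with the lowest.

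Genes for known S100 partners and receptors were mostly measured, with 14 of 15 well above background on both arrays and Fgf1 on neither. Of the 14, 10 were higher and 4 lower, 2 at least 1.2-fold higher and 1 lower, with a median of 0.07. At this fold 6.95% of all genes were higher and 7.52% lower, so these small counts lie near the background. Anxa1, the annexin that S100a11 binds, went from 15861 with control EVs to 22711 with CML EVs (log2 ratio 0.52). Anxa2, the partner of S100a10, went from 32048 to 36588 (0.19), while S100a10 itself stood at -0.04. For the calprotectin receptors named above, Tlr4 gave 531 with control EVs and 605 with CML EVs (0.19). Ager gave 1644 and 1577 (-0.06), with its probes ranging from -0.06 to 0.36. The listed gene at least 1.2-fold lower was Cd36, which was dim, at 66.1 with control EVs and 53.0 with CML EVs (-0.32). Besides Anxa1, the dim Anxa11 was at least 1.2-fold higher (0.36). Cd69 was at -0.07 and Bsg at 0.03. Myh9, the myosin heavy chain that S100a4 binds, was at 0.07, and Cacybp, the S100a6 partner, was at -0.01. Both lay close to the median of all genes.

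Of 10 transcription factors of myeloid maturation, all well above background, 9 were higher with CML EVs and 5 at least 1.2-fold higher, with a median of 0.25. Of all genes, 6.95% were higher at this fold. Cebpe, needed for the later steps of granulocyte maturation, gave 6778 with control EVs and 13580 with CML EVs, a log2 ratio of 1.00. Gfi1, a repressor required for neutrophil production, was at 0.97 and Cebpd at 0.47. Cebpa (0.20) and Cebpb (0.16), also C/EBP factors, had ratios about the size of the S100a9 ratio. Spi1, which encodes PU.1, was at 0.30, and Stat3 at -0.00. No binding was measured, and the C/EBP-type core noted above does not link these factors to S100a8 or S100a9.

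Marker genes of the myeloid line moved on the same pair of arrays, and their values are given beside those of S100a8 and S100a9. At a fold of at least 1.2, 6.95% of all genes were higher and 7.52% lower. All 8 primary granule genes were higher with CML EVs and 7 at least 1.2-fold (median 0.65; Elane 1.18, Fcnb 1.09, Ms4a3 0.77), and the summed signal of the measured genes, as for the lists that follow, went from 351058 to 455429. Of 19 measured late neutrophil genes, 11 were higher and 8 lower, 10 at least 1.2-fold higher and 1 lower (median 0.46), with a summed signal from 118108 to 160072. Its genes with the largest ratios were Chil3 (1.02), Pglyrp1 (0.98) and Ltf (0.91), while the 8 lower genes reached down to -0.30, so the list did not rise as a whole. Mmp9 was not well above background on either array, and Ly6g and Olfm4 had no probe named here. Of 12 monocyte and macrophage genes 9 were higher and 3 lower, 4 at least 1.2-fold higher (median 0.08; Vcam1 1.17, Ly6c2 0.64, Fcgr1 0.32), with a summed signal from 70311 to 90403 and C1qa not well above background. Most of that rise came from Ly6c2, which went from 30081 with control EVs to 47021 with CML EVs. The S100a9 ratio (0.23) lay below the medians of the primary granule and late neutrophil lists, and the S100a8 ratio (0.44) lay near that of the late neutrophil list. The part of other or more mature cells in the S100a8 and S100a9 signals was not tested, and in bulk RNA a change in the number of cells of a type cannot be told apart from a change in RNA per cell.

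**Figure D4:**
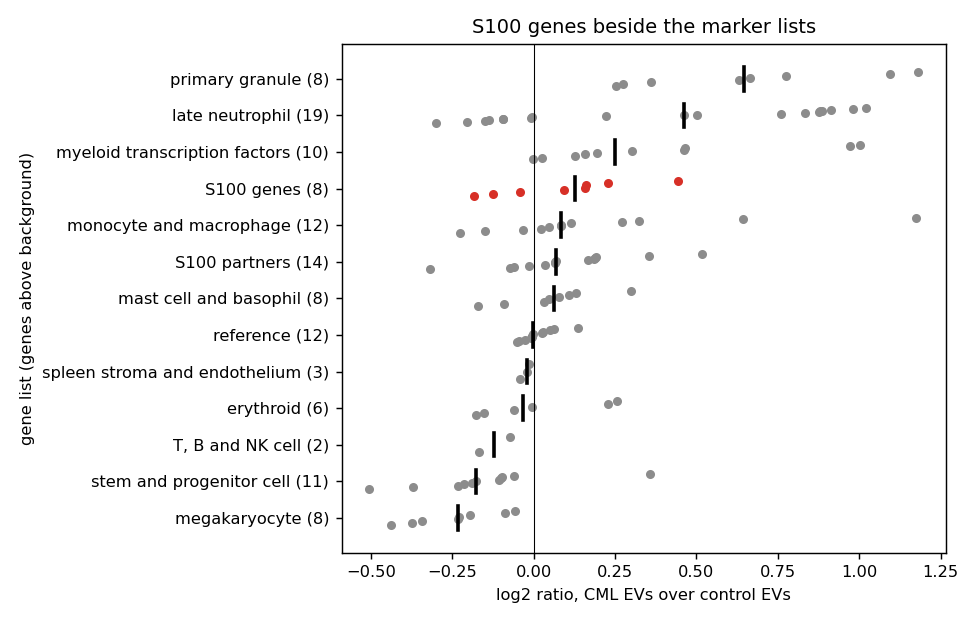
Log2 ratio (CML EVs over control EVs) of each gene well above background on both arrays, by gene list, with the number of genes in brackets; red points are the 8 S100 genes and bars are list medians. The S100 median (0.13) lies below those of the primary granule (0.65) and late neutrophil (0.46) lists and above that of the reference genes (-0.0025).

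The labelled cell type was set against its markers. Kit, which with Ly6a defines the sorted cells and is named outside the rule for that reason, gave 1646 with control EVs and 1529 with CML EVs. Ly6a, which encodes Sca-1, gave 1548 and 1985 in that order. Of 11 measured stem and progenitor genes 1 was higher and 10 lower (median -0.18), with 1 at least 1.2-fold higher and 2 lower, a summed signal from 42637 to 38293 and Mecom not well above background. Megakaryocyte genes were lower in 8 of 8 cases, 3 at least 1.2-fold (median -0.23, sum from 81770 to 73917). At this fold 6.95% of all genes were higher and 7.52% lower, and the stem and progenitor counts lay near these shares. Mast cell and basophil genes (8 measured, 6 higher, median 0.06, sum from 50129 to 52782) and erythroid genes (6 measured, 2 higher, median -0.03, sum from 5670 to 5526, Alas2 not well above background) lay closer to 0. For T, B and NK cells 2 genes were well above background on both arrays (sum from 687 to 620), and Cd79a, Ms4a1, Cd3g, Cd8a and Ncr1 were not well above background on either array. For spleen stroma and endothelium 3 of 7 genes were measured (sum from 837 to 821), and Cdh5, Col1a1, Cxcl12 and Dcn were not well above background. The signals of S100a8 and S100a9 were thus read in cultures in which both stem cell and granulocyte genes were above background in each condition.

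The S100a8 and S100a9 ratios kept their sign under all 9 alternative ways of processing, between 0.44 and 0.51 for S100a8 and between 0.23 and 0.30 for S100a9. For a gene with a single probe, the deposited values and the other choices of probe could not change the ratio. Keeping outlier spots left these ratios unchanged, so only the scaling, normexp and loess alternatives could move them. S100a8 also kept the highest ratio of the 183 bright genes under every alternative but the mean over all probes, where it ranked 2. Percentile and median scaling shift every log2 ratio by the same amount, so they could not change this rank. The deposited values could not change it either. Quantile normalization, normexp, loess, the other choices of probe and kept outlier spots could. S100a4 stayed between -0.19 and -0.11 and S100a6 between -0.17 and -0.05. S100a11 (0.07 to 0.23) and S100a13 (0.13 to 0.23) stayed above 0. S100a1 turned to -0.01 after normexp background correction followed by quantile normalization. S100a10 turned to 0.03 after median scaling, which lifted the median of all genes to 0.08.

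**Figure D5:**
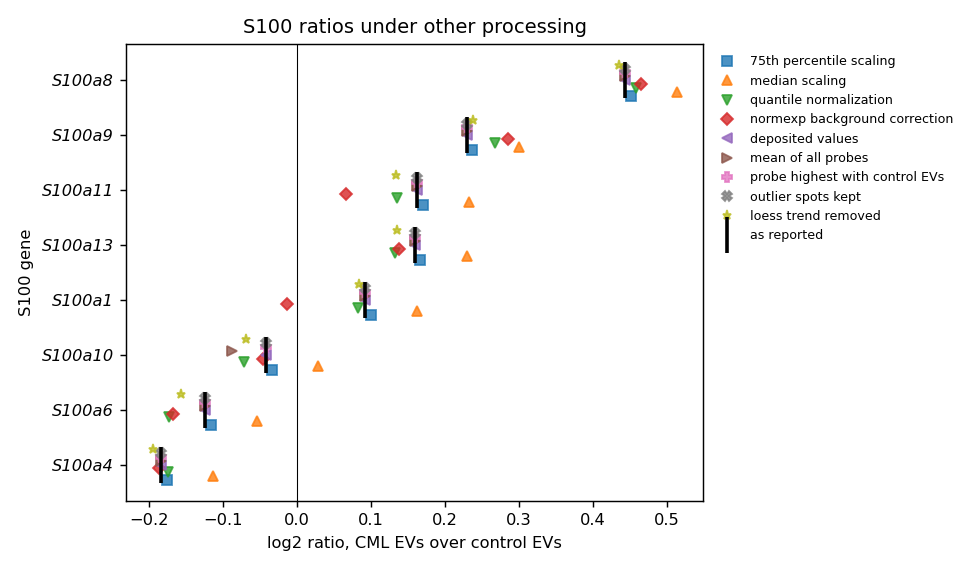
Log2 ratio (CML EVs over control EVs) of each S100 gene as reported (black bar) and under the 9 alternative ways of processing (symbols). The S100a8 symbols lie between 0.44 and 0.51, apart from those of every other member, and the symbols of S100a1 and S100a10 fall on both sides of 0.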

How the data were processed

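Per the labels and the methods, Cy3-labelled cRNA was hybridised to Agilent mouse arrays (1 array per condition), and the authors extracted spot intensities with Agilent Feature Extraction 12.0.3.1. The deposited value table was the processed signal intensity of the scanner files times 1 factor per array (0.942 and 0.947, largest relative deviation 4.96e-10), on a linear scale and uncentred.

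From the deposited intensities, control spots were removed and the remaining 59305 signals of an array were multiplied so that their mean, leaving out the upper and lower 2%, was 2500. Outlier spots (95 and 88) were then left out, values were taken to log2, and spots of a probe were averaged. Of several probes to a gene, the brightest with CML EVs was used, as in the methods. Well above background were 54.4% of spots with control EVs and 53.3% with CML EVs. The files have no gene name column. RefSeq accessions named 32994 of 56604 probes. Precision is limited by having 1 array a condition, and the error given is the software's estimate per spot.

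No test was possible. The S100 genes, the lists, the naming rule and the C/EBP motif were chosen with earlier results of these data known. Named were all S100 genes, any measured partner or transcription factor, and at most the 3 genes of largest ratio in each other list. A marker gene of the T, B and NK cell list is not reported here. A bound was set against the dimmest gene well above background on the dim array. Alternatives were the 75th percentile, median and quantile scaling, normexp (offset 50), the deposited values, other choices of probe, outlier spots kept, a loess trend (span 0.3) and other folds and filters. Normexp was run on the median spot and background signals and was followed by quantile normalization. Python 3.11.15, pandas 2.3.3, numpy 2.4.6, statsmodels 0.14.6, R 4.3.3 and limma 3.58.1 were used. The scaling and ratio steps were run on simulated arrays with 2-fold changes, which are larger than any member showed, so smaller ratios were not checked.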

Additional observations from a re-analysis of the deposited data

How the results depend on the processing

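No paired analysis was possible because only 1 array stands for either condition. Naming by a gene name column was not run, since the files have none. Over the 9 alternatives, 2 of 72 member ratios changed sign (S100a1 to -0.01 with normexp and S100a10 to 0.03 with median scaling). Many of the 72 could not move, since the deposited values and other choices of probe leave a gene with a single probe as it was. Keeping outlier spots changed no member ratio either. With 1 array per condition these values show only how the numbers move with the processing, not their variation between cultures. The cause of each shift below was not tested, apart from median scaling, which moves every gene by the same amount.

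The median of other S100 genes is over the 2 listed genes S100a16 and S100a5, and with S100a2, which the list lacks and which was added after seeing the data, it was -0.15, -0.080 with median scaling and -0.036 with normexp. With median scaling the S100 median was 0.20 and 2 members were at least 1.2-fold higher, beside 10.99% of all genes, and the list medians became 0.057 (other S100 genes), 0.14 (partners), 0.32 (transcription factors), 0.72 (primary granule), 0.53 (late neutrophil), 0.15 (monocyte and macrophage), 0.13 (mast cell and basophil), -0.11 (stem and progenitor), 0.038 (erythroid), -0.16 (megakaryocyte), -0.050 (T, B and NK), 0.050 (stroma and endothelium) and 0.068 (reference). With quantile normalization 2 members were at least 1.2-fold higher, beside 7.66% of all genes, the late neutrophil median was 0.42 and the stem and progenitor median -0.21. With normexp the S100 median was 0.027, 2 members were at least 1.2-fold higher, beside 3.88% of all genes, and the medians were 0.029 (other S100 genes), 0.61 (primary granule), -0.087 (erythroid), -0.085 (T, B and NK) and 0.047 (stroma and endothelium). With the mean of all probes the medians were 0.12 (partners), 0.097 (erythroid), -0.27 (megakaryocyte) and -0.048 (T, B and NK). The count of members higher was 0 at 1.5-fold and 0 at 2-fold, and the S100 median was 0.026 without S100a8 and S100a9.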
